A study of Mus musculus with 7 samples.

Results

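The 32 genes described here are targets of the transcription factors ATF4 and CHOP, chosen by gene symbol from a table of 19649 genes and sorted into 4 groups by what their products do. The groups were 13 stress regulators, 8 enzymes of serine, one-carbon and related amino acid synthesis, 4 amino acid transport genes, and 7 genes of tRNA charging and export. All 32 were found in the table, and all 32 passed the filter on low values (3 or more libraries with a normalized count of 10 or higher), as did 16047 genes in all.

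RNA was sequenced from long-term haematopoietic stem cells, the rare self-renewing blood stem cells of the bone marrow, sorted from mice by surface markers (lineage negative, Kit and Sca-1 positive, CD48 negative, CD150 positive). The del52 group held 3 libraries whose labels give Calr fl/fl, with Calr del52/del52 as the induced alleles, and MxCre; in them both copies of Calr, the gene of the endoplasmic reticulum chaperone calreticulin, carry the deletion known from human myeloproliferative neoplasms. The wild-type group held 4 libraries of genotype Calr +/+ MxCre. Mice of both groups carried MxCre, a Cre recombinase under an interferon-responsive promoter, which is not confined to stem cells, and both received pI:pC, a double-stranded RNA mimic that induces interferon. The sort took place 14 days after the start of induction, without any drug. The sources used here do not give the age of the mice. Whether the libraries stem from separate animals is not stated in the labels, so the p-values measure the spread between these libraries, which may be technical. In such bulk samples, fewer cells of a type and less RNA per cell cannot be told apart.

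ATF4 is the main transcription factor of the integrated stress response. Kinases that sense unfolded protein in the endoplasmic reticulum (PERK), amino acid shortage (GCN2), viral RNA (PKR) or heme shortage (HRI) phosphorylate the initiation factor eIF2alpha, which slows protein synthesis in general while ATF4 is translated more. ATF4 then drives genes that import and make amino acids and charge tRNAs, and it induces CHOP, the product of Ddit3, with which it switches on further stress genes. Blood stem cells are known for low rates of protein synthesis and for sensitivity to faulty protein folding.

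ATF4 often binds with a C/EBP partner to a composite DNA element whose core was searched here as TGATGNAA on both strands, in promoter windows that reached from 250 bases before to 50 bases after the start of each gene. RefSeq promoters of GRCm38.p6 were matched for 26 of the 32 target genes (Cars, Cth, Eif4ebp1, Nars, Slc7a5 and Wars were not matched). The core was present in 10 of the 26 (38.5%), namely Aars, Asns, Atf3, Chac1, Gars, Nupr1, Pck2, Slc7a11, Trib3 and Vldlr, against 4.51% of all 27025 genes with a promoter. The stricter form TGATGCAA, a subset of these matches, was in 6 (23.1%), against 1.03% of all genes. The cAMP response element TGACGTCA was in 0 of the 26, against 2.03% of all genes. A match is a description of the letters and was not tested for binding. The windows below, of 150 bases each, ending 25 bases after the start and written in the gene's own direction, are those of the 3 genes whose del52 libraries all lay above all wild-type libraries, followed by Asns, which holds the core and had almost the same level in both groups. Capitals mark the core, on either strand.
Trib3, chr2:152344036-152344185, minus strand: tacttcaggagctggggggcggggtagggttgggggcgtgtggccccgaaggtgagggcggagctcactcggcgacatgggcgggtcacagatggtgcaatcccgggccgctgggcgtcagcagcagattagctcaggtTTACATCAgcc
Nupr1, chr7:126625446-126625595, minus strand: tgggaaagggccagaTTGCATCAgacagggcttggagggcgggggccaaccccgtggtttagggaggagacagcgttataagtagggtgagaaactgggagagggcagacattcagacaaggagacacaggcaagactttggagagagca
Slc7a11, chr3:50443589-50443738, minus strand: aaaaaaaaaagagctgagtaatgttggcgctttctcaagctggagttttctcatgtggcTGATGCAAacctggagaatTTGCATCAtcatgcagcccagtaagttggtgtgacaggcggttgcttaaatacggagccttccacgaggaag
Asns, chr6:7693185-7693334, minus strand: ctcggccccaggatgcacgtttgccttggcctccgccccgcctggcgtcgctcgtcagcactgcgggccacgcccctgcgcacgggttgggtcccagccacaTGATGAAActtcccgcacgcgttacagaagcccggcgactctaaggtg
Slc7a11 held 2 copies in opposite directions, whose first bases were at positions -66 and -47 from the start. The single copies had their first base at position 15 in Trib3, -110 in Nupr1 and -23 in Asns.

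The recovered read totals were 21325340 to 27083569 in del52 libraries and 22555594 to 28710304 in wild-type libraries. Calr itself, the targeted gene, averaged 15093 ± 767 normalized counts in del52 libraries (SD, n = 3) and 16783 ± 1259 in wild-type libraries (SD, n = 4). Every del52 library (at most 15724) lay below every wild-type library (at least 15922), with a log2 difference of -0.15 and an SE of 0.15. Such a separation was seen in 4.34% of all genes. A count over the whole gene does not show the deletion. Wild-type libraries 3 and 4 stood apart from wild-type 1 and 2: 8810 genes (54.9% of those tested) differed between these pairs (limma, adjusted p of at most 0.05 over all genes), and Kit, the receptor used in the sort, had 4736, 6677 and 2976 normalized counts in del52 libraries, against 4151, 4068, 26511 and 25305 in wild-type libraries. In each library, log2 deviations from each gene's mean over the 7 libraries were also set against the log2 exonic length of the gene. The slope was higher in wild-type 3 and 4 (0.24 each) than in the del52 libraries (-0.18 to 0.01) and in wild-type 1 and 2 (-0.10 and -0.11). The titles of del52 1 and 2 and of wild-type 3 and 4 carry numbers of 1 run, and the labels do not say what the numbers stand for. All 10 stem cell markers were in the table, and their summed level was 43189 to 49402 in del52 libraries and 42054 to 78160 in wild-type libraries. Of 11 neutrophil and monocyte markers 9 were lower in del52 libraries, with summed levels of 43837, 9771 and 12500 in del52 libraries and 39341 to 73698 in wild-type libraries, and all 3 B cell markers were lower (27.7 to 74.0 in del52 libraries, 134 to 215 in wild-type libraries). Megakaryocyte markers summed to 4753 to 10190 in del52 libraries and 5560 to 18404 in wild-type libraries. Mast cell and basophil markers summed to 7093 to 9690 in del52 libraries and 8322 to 18310 in wild-type libraries. Ms4a2 was at 0 in some libraries among the mast cell and basophil markers. T cell markers summed to at most 15.7 in del52 libraries and 10.4 in wild-type libraries. The part of these markers in the results below was not tested.

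The 32 target genes did not move in a single direction. Trib3, Nupr1 and Slc7a11 were higher in every del52 library than in every wild-type library. With overlapping groups, Gdf15 and Stc2 were higher on average, and Slc7a5, Aars, Xpot, Chac1 and Atf3 were lower. Against wild-type 1 and 2 alone, the log2 difference was -0.08 for Xpot and 2.78 for Atf3, and against wild-type 3 and 4 it was -1.01 for Gdf15. The 8 synthesis enzymes lay near the wild-type average. Their median log2 difference was -0.33 against wild-type 1 and 2 and 0.40 against wild-type 3 and 4. Of the 32 genes, 16 were higher in del52 libraries and 16 lower, with a median log2 difference of 0.01, against 8034 higher and 8013 lower and a median of 0.00 over all 16047 genes tested. No target gene passed the test in the fit to all 7 libraries (limma on log2 of normalized count plus 1, Benjamini-Hochberg adjusted p of at most 0.05 over all genes tested; background 0%), and 5 had an unadjusted p below 0.05, where 8.51% of all genes did. Groups did not overlap in 3 of the 32, all 3 higher in del52 libraries (background 5.23% of all genes higher and 4.34% lower). An absolute log2 difference of at least 0.5 was seen in 10 of the 32 (31.2%), 5 in each direction, and in 33.8% of all genes.

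**Figure D1:**
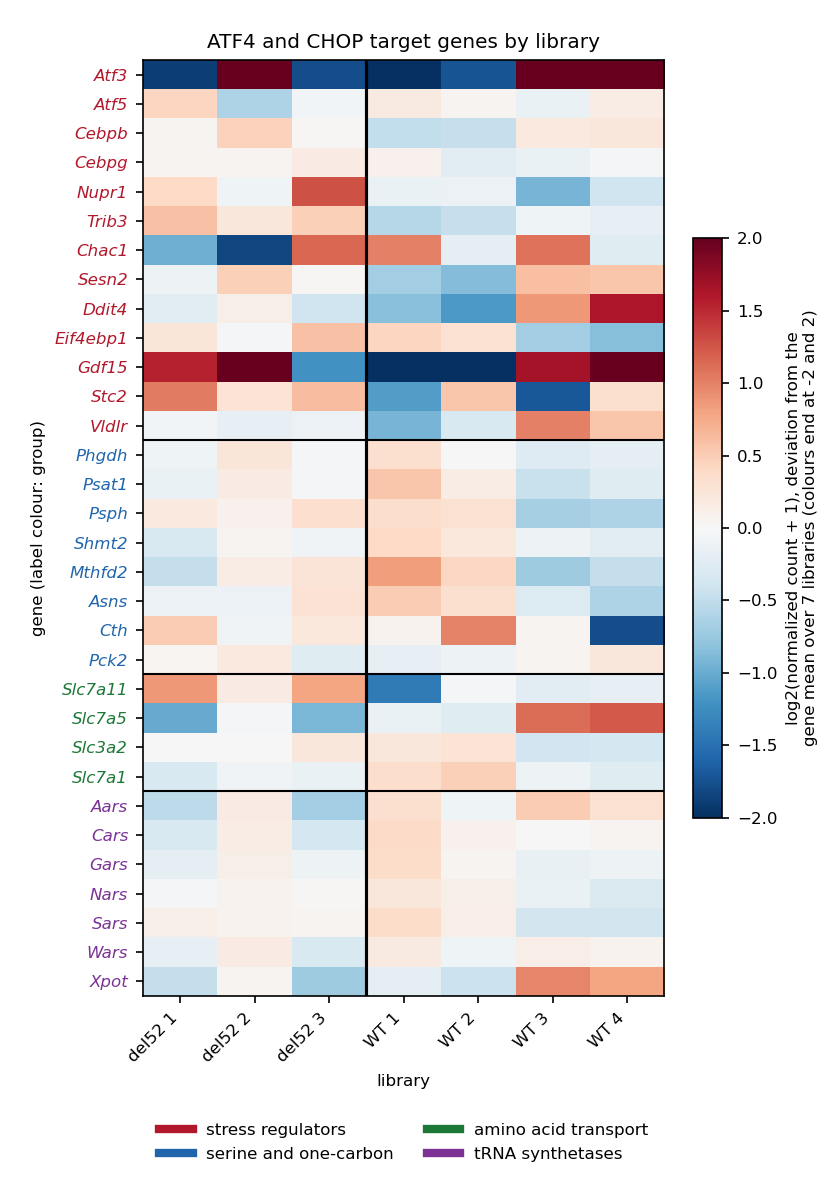
Each row is a target gene and each column a library, del52 left of wild-type (WT). Colour is the log2(normalized count + 1) of that library minus the gene's mean over the 7 libraries, ending at -2 and 2. Wild-type 3 and 4 carry colours opposite to wild-type 1 and 2 in most rows, and the rows of Trib3 and Slc7a11 are redder in del52 than in wild-type columns.

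Which wild-type libraries served as the comparison set the direction for many of these genes. Levels differed between wild-type 3 and 4 and wild-type 1 and 2 in 23 of the 32 target genes (limma, adjusted p of at most 0.05; background 54.9%), with 10 higher and 13 lower in wild-type 3 and 4. Set against wild-type 1 and 2, 12 of the 32 were higher in del52 libraries, with a median log2 difference of -0.14, and set against wild-type 3 and 4, 18 of the 32 were higher, with a median of 0.06. The 2 comparisons share the del52 libraries. With wild-type 3 and 4 left out, 0 of the 32 passed (background 0.318%), and with wild-type 1 and 2 left out, 12 of the 32 passed, 6 of them higher (background 42.6%). By other fits, 0 of the 32 passed with DESeq2 on recovered reads (background 0.667%) and 0 with edgeR (background 0%). The counts were 8 among the libraries of the title run (background 37.5%), 9 among those outside it (6.37%), 6 with the run as a covariate (22.4%) and 4 with the length slope as a covariate (0.791%). Outside the run del52 3 was the single del52 library, and its spread was taken to equal that of wild-type 1 and 2. The log2 difference of each gene is therefore given below over all 7 libraries, and for some genes also against each wild-type pair. The plot of log2 differences further below shows both kinds of value for each of the 32 genes.

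**Figure D2:**
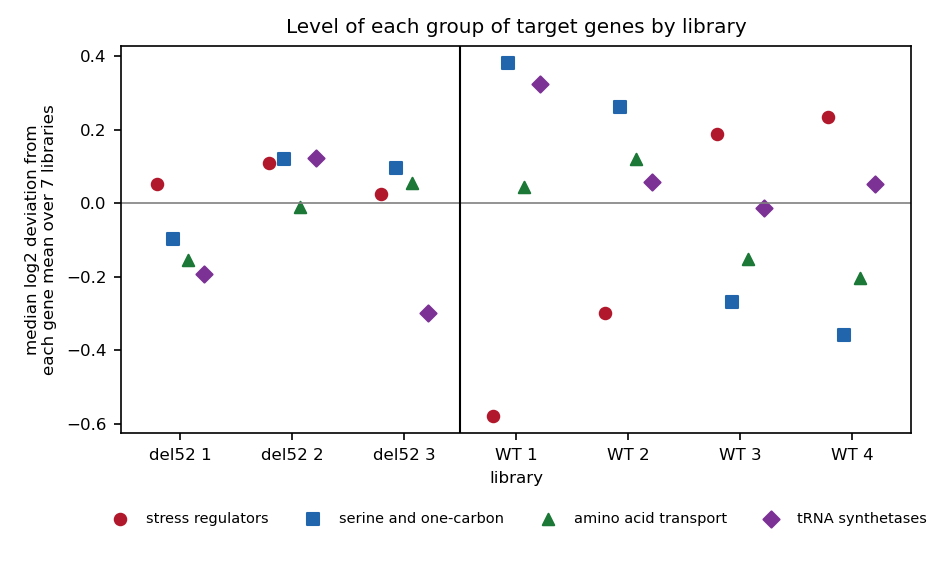
The vertical axis is the median over each group's genes of the log2 deviation from the gene's mean over 7 libraries, and the horizontal axis the library. In del52 libraries the stress regulators sit between 0.02 and 0.11, against -0.58 (WT 1), -0.30 (WT 2), 0.19 (WT 3) and 0.23 (WT 4), and the serine and one-carbon genes run the other way between the wild-type pairs.

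Among the 13 stress regulators, 8 were higher in del52 libraries and 5 lower, with a median log2 difference of 0.23. In 2 genes (Trib3 and Nupr1) all del52 libraries lay above all wild-type libraries (background 5.23% of all genes). Trib3 encodes a pseudokinase that restrains AKT signalling and is induced by ATF4 and CHOP (GRCm38 chr2:152337422-152344032, minus strand). Its normalized counts were 961, 748 and 893 in del52 libraries, against 429, 467, 603 and 574 in wild-type libraries. Each del52 library lay above each wild-type library, and the lowest values were those of wild-type 1 and 2. The log2 difference was 0.75 with an SE of 0.20 and a 95% interval of 0.29 to 1.21 (limma, adjusted p = 0.538, unadjusted p = 0.0054). It was 0.94 against wild-type 1 and 2 and 0.55 against wild-type 3 and 4, and between 0.66 and 0.85 with any 1 library left out. Trib3 passed the threshold under 4 of 22 alternatives. Among these, it passed without wild-type 1 and 2 (limma, log2 difference 0.55, adjusted p = 0.0339, where 42.6% of all genes passed). It also passed with the length slope of each library as a covariate (0.87, limma, adjusted p = 0.0385, background 0.791%). It missed the threshold without wild-type 3 and 4 (adjusted p = 0.092), and the adjusted p ranged from 0.0045, in the fit outside the title run with del52 3 alone, to 0.918 over all alternatives.

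Nupr1 encodes a small chromatin-associated protein induced by stress, known as a target of ATF4 (chr7:126623249-126630861, minus strand). It had 1497, 1071 and 2739 normalized counts in del52 libraries, against 1037, 1048, 597 and 867 in wild-type libraries. The groups did not overlap, but del52 2 and wild-type 2 were close, and del52 3 stood well above the other two. Its log2 difference was 0.92 with an SE of 0.34 (limma, adjusted p = 0.538), 0.65 against wild-type 1 and 2 and 1.18 against wild-type 3 and 4, with 0.55 when del52 3 was left out. Nupr1 passed under 4 of 22 alternatives, the fit without wild-type 1 and 2 included (limma, adjusted p = 0.0283, where 42.6% of all genes passed). Over all alternatives its adjusted p reached 0.918. Of the 4 passes, 1 came from the fit outside the title run. There the del52 arm was del52 3 alone, the library with the highest Nupr1 count.

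Gdf15 and Atf3 varied more between the wild-type pairs than between the genotypes, as did other target genes in each of the groups. Gdf15 encodes a secreted stress cytokine of the TGF-beta family (chr8:70629393-70632456, minus strand). It had 1581, 2772 and 234 normalized counts in del52 libraries, against 48.1, 65.4, 1718 and 2416 in wild-type libraries. Wild-type 3 and 4 were as high as del52 1 and 2, del52 3 was far lower than these, and wild-type 1 and 2 were the lowest of all. On the log2 scale the difference was 1.57 with an SE of 1.55 (limma, adjusted p = 0.621), 4.15 against wild-type 1 and 2 and -1.01 against wild-type 3 and 4. Gdf15 passed the threshold under 2 of 22 alternatives, outside the title run with del52 3 alone (2.04) and with the length slope as a covariate (4.06, background 0.791%).

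Atf3 encodes a transcription factor of the same basic leucine zipper class as ATF4, which acts downstream of it (chr1:191170296-191218039, minus strand). Its normalized counts were 39.3, 915 and 42.3 in del52 libraries, against 5.46, 43.6, 1002 and 3325 in wild-type libraries. Only del52 2 was near wild-type 3, and the others of the del52 group were near wild-type 2. The log2 difference was -0.59 with an SE of 2.13 (limma, adjusted p = 0.892), 2.78 against wild-type 1 and 2 and -3.97 against wild-type 3 and 4. Its sign turned with single libraries, to 0.18 without del52 1, 0.13 without del52 3, 0.25 without wild-type 3 and 0.82 without wild-type 4. Ddit4, whose product REDD1 inhibits the growth kinase complex mTORC1, had 162, 202 and 141 normalized counts in del52 libraries, against 104, 84.1, 341 and 577 in wild-type libraries. All 3 del52 libraries lay between the wild-type pairs, with a log2 difference of -0.29. Without wild-type 1 and 2, where 42.6% of all genes passed, both genes passed the threshold as lower in del52 libraries (-3.97 for Atf3 and -1.41 for Ddit4). Ddit4 also passed in the title run alone (-1.29, background 37.5%).

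Chac1 and Stc2 were counted near the lower limit of the table. Chac1, which encodes a glutathione-degrading enzyme, had 5.61, 2.68 and 27.8 normalized counts in del52 libraries, against 25.1, 10.4, 26.7 and 9.98 in wild-type libraries. The groups overlapped, with 2 del52 libraries below all wild-type libraries and del52 3 above them (log2 difference -0.97, SE 0.75). Stc2, which encodes the secreted glycoprotein stanniocalcin-2, had 28, 16.1 and 20.5 normalized counts in del52 libraries, against 5.46, 19.7, 3.34 and 16.6 in wild-type libraries. Here 2 del52 libraries were above all wild-type libraries and del52 2 was within their range (log2 difference 1.13, SE 0.62).

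Over all libraries, the other 6 stress regulators differed by at most 0.48 on the log2 scale. Eif4ebp1, the translation repressor that holds the cap-binding factor eIF4E, gave 0.48 over all libraries, -0.09 against wild-type 1 and 2 and 1.05 against wild-type 3 and 4. Sesn2, an amino acid sensor that restrains mTORC1, gave 0.23, with 0.91 against wild-type 1 and 2 and -0.45 against wild-type 3 and 4. The C/EBP factors that partner ATF4 gave 0.31 for Cebpb and 0.15 for Cebpg, the ATF4-related factor Atf5 gave -0.15, and the lipoprotein receptor gene Vldlr gave -0.20. The libraries were unstranded, so reads of overlapping genes on opposite strands cannot be told apart: Tmem189 covers 20.7% of the exonic bases of Cebpb, and Il4i1 and Nup62 each cover 4.11% of those of Atf5.

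**Figure D3:**
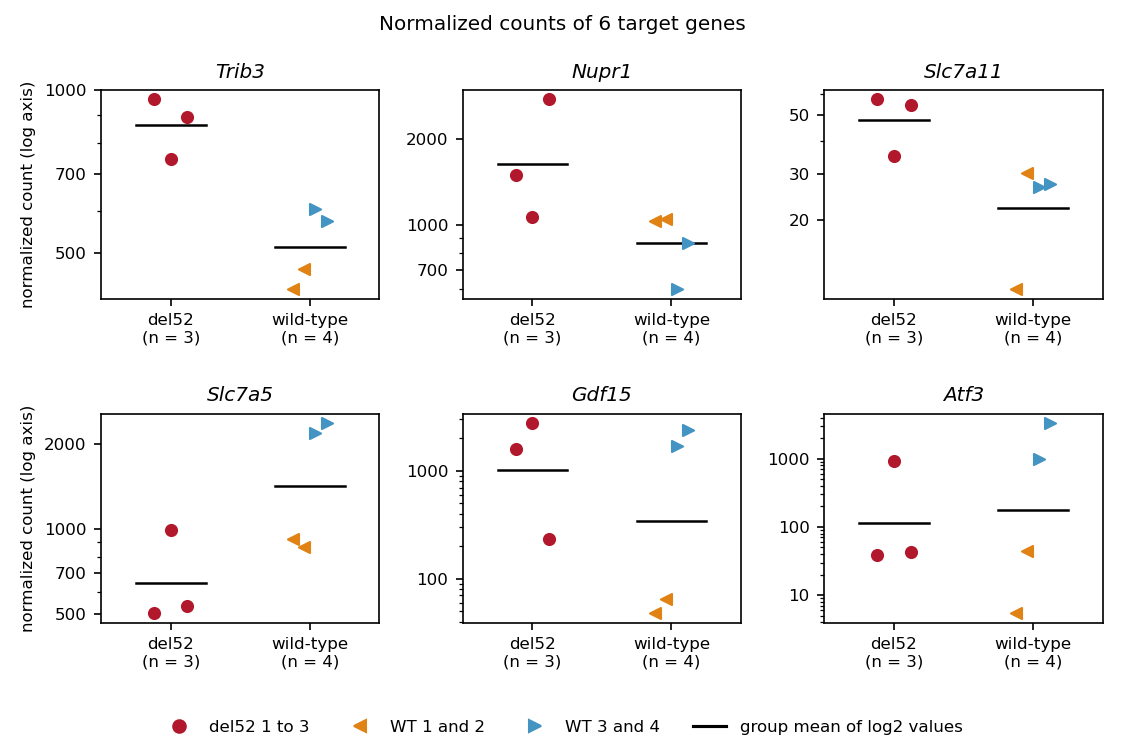
Normalized counts on log axes for 6 target genes, del52 libraries left and wild-type libraries right, 1 symbol per library; the line is the group mean of log2 values. Del52 symbols lie above all wild-type symbols for Trib3, Nupr1 and Slc7a11, while for Slc7a5, Gdf15 and Atf3 the groups overlap and the wild-type pairs are separate.

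The 8 genes of serine, one-carbon and related amino acid synthesis had nearly the same average level in both groups. Of these, 4 were higher and 4 lower in del52 libraries, with a median log2 difference of 0.01. Groups that did not overlap were seen in 0 of the 8 (background 5.23% of all genes higher and 4.34% lower). Their absolute differences were at most 0.38, and their median absolute difference was 0.06, against 0.35 over all genes tested. Serine is made from a glycolytic intermediate by Phgdh (log2 difference 0.08), Psat1 (-0.00) and Psph (0.36). Of the exonic bases of Psph, 10.4% are shared with Cct6a on the opposite strand. Psph passed as higher without wild-type 1 and 2 (0.84, limma, adjusted p = 0.00485, background 42.6%). It also passed in the title run alone (0.78, limma, adjusted p = 0.0052, background 37.5%). The mitochondrial one-carbon enzymes that use serine gave -0.19 for Shmt2 and -0.03 for Mthfd2. Asns, which makes asparagine, gave 0.03, Cth, which makes cysteine, gave 0.38, and Pck2, the mitochondrial enzyme that makes phosphoenolpyruvate, gave -0.00. The 95% intervals were -0.36 to 0.52 for Phgdh, -0.63 to 0.70 for Asns and -0.94 to 0.88 for Mthfd2. The widest was -1.02 to 1.78 for Cth, which was scarce, at 7.48 to 57.1 normalized counts. Differences within these bounds were not excluded with 3 and 4 libraries. The nearness to 0 was that of an average between unlike wild-type pairs: 1 of the 8 was higher against wild-type 1 and 2 (median -0.33), and 7 of the 8 were higher against wild-type 3 and 4 (median 0.40). The wild-type pairs themselves differed in 7 of the 8 genes, with 6 lower in wild-type 3 and 4 (background 54.9% in either direction). Mthfd2 showed this with 505, 780 and 843 normalized counts in del52 libraries, against 1249, 933, 427 and 506 in wild-type libraries.

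The 4 amino acid transport genes held 2 of the largest differences, in opposite directions. Slc7a11 encodes the light chain of the cystine and glutamate exchanger (chr3:49892526-50443614, minus strand). It was scarce, with 57.2, 34.8 and 54.4 normalized counts in del52 libraries, against 10.9, 30.1, 26.7 and 27.4 in wild-type libraries. All del52 libraries lay above all wild-type libraries, and del52 2 lay only slightly above wild-type 2. The log2 difference was 1.07 with an SE of 0.43 (limma, adjusted p = 0.538), 1.34 against wild-type 1 and 2 and 0.80 against wild-type 3 and 4. It was 0.75 without wild-type 1, and Slc7a11 passed the threshold under no alternative.

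Slc7a5 encodes the light chain of the LAT1 transporter, which takes up leucine and other large neutral amino acids (chr8:121881150-121907694, minus strand). Its normalized counts were 506, 994 and 536 in del52 libraries, against 922, 862, 2194 and 2369 in wild-type libraries. Del52 1 and 3 were the lowest libraries, del52 2 lay slightly above wild-type 1 and 2, and wild-type 3 and 4 were more than 2-fold above every other library. The log2 difference was -1.14 with an SE of 0.44 and a 95% interval of -2.14 to -0.14 (limma, adjusted p = 0.538), -0.46 against wild-type 1 and 2 and -1.82 against wild-type 3 and 4. Slc7a5 passed the threshold under 4 of 22 alternatives, among them the fit without wild-type 1 and 2 (limma, adjusted p = 0.00268, where 42.6% of all genes passed). It also passed with the title run as a covariate (-1.30, limma, adjusted p = 0.0258, background 22.4%). Over all alternatives its adjusted p ranged from 0.00268 to 0.918. Slc3a2, whose product is the heavy chain that pairs with both of these light chains, gave 0.14, and Slc7a1, the importer of arginine and lysine, gave -0.29. Against wild-type 1 and 2 and then wild-type 3 and 4, Slc3a2 gave -0.17 and 0.44, and Slc7a1 -0.58 and 0.01. Slc3a2 passed as higher without wild-type 1 and 2 (limma, adjusted p = 0.0382, background 42.6%). In del52 libraries Slc3a2 ranged over 6052 to 7168 normalized counts, within the 4658 to 7378 of wild-type libraries.

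In the tRNA group, 5 of 7 genes were lower in del52 libraries and 2 higher, with a median log2 difference of -0.18. The groups separated in 0 of the 7 (background 5.23% of all genes higher and 4.34% lower). Aars, the alanyl-tRNA synthetase gene, had 1350 normalized counts in del52 1, 2163 in del52 2 and 1201 in del52 3, against 2419, 1813, 2742 and 2389 in wild-type libraries. Del52 1 and 3 were below every wild-type library, and del52 2 was above wild-type 2. The log2 difference was -0.61 with an SE of 0.25 (limma, adjusted p = 0.538), -0.46 against wild-type 1 and 2 and -0.75 against wild-type 3 and 4. Aars passed the threshold under 3 of 22 alternatives, 1 of them outside the title run with del52 3 alone. It passed with the title run as a covariate (limma, adjusted p = 0.0364, background 22.4%) and without wild-type 1 and 2 (0.0379, background 42.6%). Over all alternatives its adjusted p reached 0.918. On its own strand Aars shares 14.3% of its exonic bases with Exosc6.

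Xpot, which encodes exportin-T, the carrier of tRNAs out of the nucleus, had 1444, 2086 and 1229 normalized counts in del52 libraries, against 1785, 1491, 3954 and 3476 in wild-type libraries. The del52 libraries overlapped wild-type 1 and 2 and lay below wild-type 3 and 4 (log2 difference -0.67, SE 0.38; -0.08 and -1.26 against these pairs). Xpot passed the threshold under 3 of 22 alternatives, without wild-type 1 and 2, in the title run alone and with the run as a covariate. In these fits 42.6%, 37.5% and 22.4% of all genes passed. The other synthetase genes gave -0.30 for Cars, -0.18 for Wars, -0.10 for Gars, 0.04 for Nars and 0.14 for Sars. Of these, Sars passed as higher without wild-type 1 and 2 (0.45, limma, adjusted p = 0.0269) and in the title run alone (0.46, 0.0268).

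**Figure D4:**
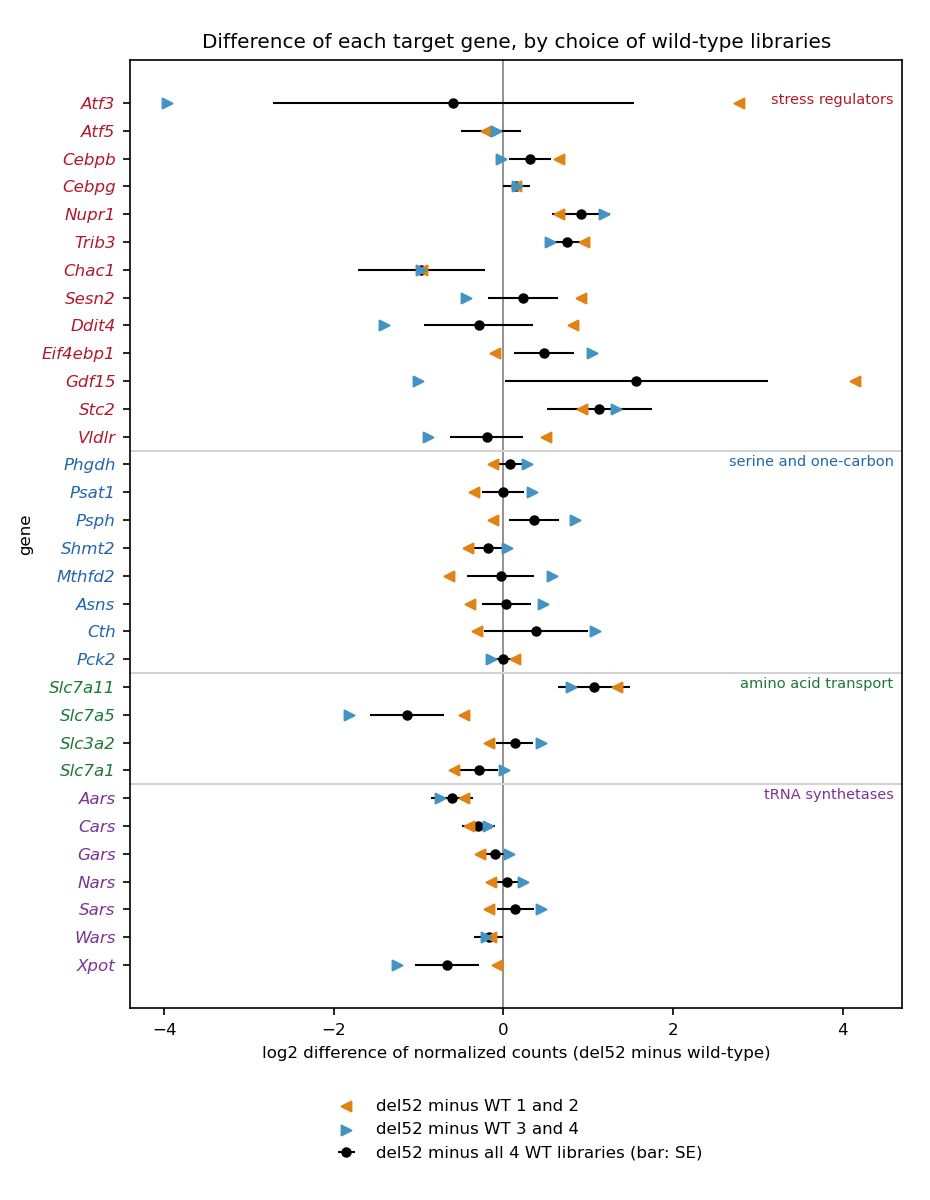
Log2 difference of normalized counts, del52 minus wild-type, for each of the 32 genes: black points over all 4 wild-type libraries with SE bars, left-pointing triangles against wild-type 1 and 2, right-pointing triangles against wild-type 3 and 4. Trib3, Nupr1, Slc7a11, Stc2 and Cebpg have all 3 symbols right of 0, Slc7a5, Aars, Xpot, Chac1, Cars, Wars and Atf5 have all 3 left of it, and Gdf15 and Atf3 have triangles far on either side.

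Of the factors that act above these targets, Ddit3 was higher in every del52 library than in every wild-type library. Of 14 regulators, 9 were higher in del52 libraries and 5 lower, with a median log2 difference of 0.20. Groups did not overlap in 1 of the 14, Ddit3 (background 5.23% of all genes higher and 4.34% lower). Ddit3, the gene of CHOP, had 1155, 1120 and 1222 normalized counts in del52 libraries, against 497, 769, 772 and 854 in wild-type libraries. The del52 libraries were close to each other, and wild-type 1 was the lowest library (log2 difference 0.72, SE 0.22; limma, adjusted p = 0.538; 0.91 against wild-type 1 and 2 and 0.52 against wild-type 3 and 4). Ddit3 passed the threshold without wild-type 1 and 2 (limma, adjusted p = 0.0254, where 42.6% of all genes passed). It also passed in the title run alone (limma, adjusted p = 0.0412, background 37.5%) and with the run as a covariate (0.0346, background 22.4%). Outside the run, with del52 3 alone, its log2 difference was 0.98. Ddit3 did not pass without wild-type 3 and 4 (adjusted p = 0.146), with the length slope as a covariate (0.0575), by edgeR (0.462) or by DESeq2 (0.143). Atf4 itself had 6143, 7421 and 5798 normalized counts in del52 libraries, against 4865, 5638, 6439 and 5484 in wild-type libraries, which overlapped (0.20, SE 0.17). ATF4 is controlled mainly at translation, which RNA levels do not measure.

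Among the kinases, Eif2ak3 (PERK) gave -0.66, with 0.11 against wild-type 1 and 2 and -1.43 against wild-type 3 and 4. Eif2ak4 (GCN2) gave -0.91, with -0.11 and -1.71, while Eif2ak2 (PKR) gave 0.25 and Eif2ak1 (HRI) gave -0.04. The phosphatase subunits that reverse eIF2alpha phosphorylation gave 0.60 for the stress-induced Ppp1r15a, with 1.65 and -0.45 against the 2 pairs, and -1.01 for Ppp1r15b, with 0.02 and -2.03. The substrate gene Eif2s1 gave 0.23, and the 5 subunits of its exchange factor eIF2B ranged from -0.08 to 0.28. With the title run as a covariate (background 22.4%), Eif2ak4, Ppp1r15b and Eif2ak3 passed as lower in del52 libraries (limma, adjusted p = 0.026, 0.0268 and 0.0378). These genes also passed as lower without wild-type 1 and 2 (background 42.6%) and in the title run alone (37.5%). In both of these latter fits Eif2ak2, Eif2s1 and Eif2b1 to Eif2b4 passed as higher. Ppp1r15a passed with the length slope as a covariate (1.52, background 0.791%).

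Most other known ATF4 and CHOP targets were lower on average in del52 libraries. Of 24 listed, 21 were tested, 6 higher and 15 lower in del52 libraries, with a median log2 difference of -0.15, where 8034 of all 16047 genes were higher and the median was 0.00. In 3 of the 21 the groups did not overlap, 2 higher (background 5.23%) and 1 lower (background 4.34%). These were Map1lc3b, an autophagy gene (0.47), Herpud1, an endoplasmic reticulum degradation gene (0.37), and the glutamine transporter gene Slc1a5 (-0.47), with 4552, 5735 and 4147 normalized counts in del52 libraries and 5901 to 6999 in wild-type libraries. The largest differences were 0.83 for Jdp2, a leucine zipper factor, and -1.17 for the glycine transporter gene Slc6a9, both with overlapping groups. Slc6a9 was scarce, at 18.1 to 84.3 normalized counts, and gave -0.58 against wild-type 1 and 2 and -1.76 against wild-type 3 and 4. Some other targets changed sign between these pairs, such as Slc38a2 (0.15 and -0.95) and Bbc3 (0.87 and -0.25). The lists share genes: 6 of the 21 are also among the other cytosolic synthetase genes, 4 among the other transporter genes, 1 among the other one-carbon genes and 1 (Ppp1r15a) among the regulators. The 14 other cytosolic synthetase genes split into 6 higher and 8 lower (median -0.09), from -0.87 for Vars, which gave -0.00 against wild-type 1 and 2 and -1.74 against wild-type 3 and 4, to 0.26 for Farsb. Of 17 mitochondrial synthetase genes 6 were higher and 11 lower (median -0.13). Of 10 other amino acid transporter genes tested 3 were higher and 7 lower (median -0.24), and of 11 other one-carbon genes tested 5 were higher and 6 lower (median -0.06).

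Promoters with and without the composite core held genes of both directions. The 10 target genes with TGATGNAA in the window had a median log2 difference of -0.05 (4 higher, 6 lower), and the 16 without it had 0.11 (9 higher, 7 lower). All 3 genes whose groups did not overlap had the core, and so did Aars, Chac1 and Atf3 on the lower side. Asns, with the core near its start, had 1222, 1219 and 1610 normalized counts in del52 libraries, against 1881, 1648, 1093 and 861 in wild-type libraries. Its del52 values lay between those of the wild-type pairs.

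Levels per length, in the FPKM of the authors summed over the transcripts of a gene, ranked the target genes within these stem cells. FPKM values were found for 27 of the 32 (not for Atf5, Chac1, Cth, Slc7a11 and Stc2). Phgdh had the highest mean over all 7 libraries, at 173 ± 18.0 FPKM in del52 libraries (SD, n = 3) and 167 ± 30.4 in wild-type libraries (SD, n = 4). Its neighbours in this order, Slc3a2 (168 ± 24.1 in del52 and 152 ± 46.4 in wild-type libraries) and Eif4ebp1 (180 ± 40.3 in del52 and 139 ± 60.5 in wild-type libraries), did not differ from it beyond their spread. Trib3 ranked far lower, at 16.4 ± 2.32 FPKM in del52 libraries and 9.94 ± 1.63 in wild-type libraries, and Nupr1 lay between, at 82.0 ± 45.8 in del52 libraries and 33.0 ± 9.24 in wild-type libraries. Of these 27 genes the least abundant were Vldlr (3.86 ± 0.315 in del52 and 6.11 ± 3.55 in wild-type libraries) and Ddit4 (3.39 ± 0.721 in del52 and 5.84 ± 5.05 in wild-type libraries).

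Of 156 transcripts of the target genes 76 passed the filter (3 or more libraries with an FPKM of 1 or higher), and 0 of the 76 passed the test across 30156 transcripts (limma on log2 of FPKM plus 1; background 0%; smallest adjusted p of any transcript 0.0997, and 9 of the 76 with an unadjusted p below 0.05). Groups did not overlap in 8 of the 76, 4 higher (background 4.27%) and 4 lower (background 3.82%). The coding transcript Trib3-201 carried nearly all of the Trib3 level, with 18.0, 13.8 and 17 FPKM in del52 libraries, against 7.88, 8.81, 11.3 and 10.8 in wild-type libraries (log2 difference 0.70). For Nupr1 the coding Nupr1-201 was above all wild-type libraries (1.21), as were Nupr1-204 and Nupr1-205 (1.25 and 1.34), both annotated as substrates of nonsense-mediated decay. The intron-retaining Nupr1-202 was at 4.27 ± 0.78 FPKM in del52 libraries and 4.59 ± 0.79 in wild-type libraries (log2 difference -0.09). The 4 transcripts below all wild-type libraries were Pck2-209 (-0.72), Pck2-212 (-0.58), Shmt2-203 (-0.56) and Wars-201 (-0.40). Pck2-209 was under the filter level of 1 FPKM in every del52 library (0.487, 0.747 and 0.737) and passed through wild-type libraries alone. Its level in wild-type 3 was 0.751, close to the del52 values. Shmt2-203 was under that level in del52 1 and 3 (0.77 and 0.71), and Pck2-212 in del52 3 (0.828).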

How the data were processed

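The authors used STAR 2.7.3a with build GRCm38, as well as HTSeq 0.6.1, DESeq2 1.12.4, Cufflinks 2.2.1 and FastQC 0.11.7, per the submitters' processing notes, and the sources used here do not give their settings. The labels state SMART-Seq v4 cDNA and unstranded libraries. The authors deposited a normalized count signal per gene and library, all values of which (100%) were whole multiples of 1 step within 0.01 reads, so whole reads were recovered. The authors deposited FPKM for 66660 transcripts. From these, limma 3.58.1 (R 4.3.3, variance trend, two-sided, no covariate) was run on log2(normalized count + 1) over genes at 10 or more in at least 3 libraries and on log2(FPKM + 1) over transcripts at 1 or more, adjusted over the whole table by Benjamini-Hochberg at 0.05. The same code was tested on simulated data. GENCODE vM21 gave positions and overlaps, matching 19237 genes and 66303 transcripts, and RefSeq gave promoters.

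Alternatives were pseudocounts of 0.5 and 5, no filter and a filter of 50, TMM and quantile scaling, edgeR 4.0.16 quasi-likelihood and DESeq2 1.42.0 on recovered reads, summed FPKM, each library left out, each wild-type pair left out, libraries inside and outside the title run alone, and the title run or length slope as covariate. Libraries were numbered within a group in accession order. The target genes and other lists were chosen with earlier results of these data known. Values in every library are given for target genes with an absolute log2 difference of at least 0.5, groups that did not overlap, or a wild-type pair gap of at least 2; Mthfd2, Slc3a2 and Asns were added after their values were seen. One further list of marker genes is not reported here.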

Additional observations from a re-analysis of the deposited data

How the results depend on the processing

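No paired analysis was possible because the library numbers were given in accession order and the labels share none between the groups. No gene of the whole table passed with all 7 libraries (limma; 1365 at an unadjusted p below 0.05), nor with any 1 library left out (0 to 0) or by edgeR on recovered reads (1639 unadjusted). DESeq2 on recovered reads called 107 genes, and the other fits called 51 when wild-type 3 and 4 were left out, 6828 when wild-type 1 and 2 were, 6010 in the title run alone, 1022 outside it, 3597 with the title run and 127 with the length slope as covariate. Outside the title run del52 3 was alone and was assumed to vary like the other libraries. The 4 target genes called with the slope were Cebpb, Trib3, Sesn2 and Gdf15. With 3 and 4 libraries the spread between them limits what could be called.

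Median log2 differences moved as follows. Over all 32 genes the median was -0.14 without wild-type 3 and 4 and -0.12 outside the title run, and it ranged from -0.0065 to 0.15 with 1 library left out. For stress regulators it was 0.66 when wild-type 3 and 4 were left out, -0.090 when wild-type 1 and 2 were, 0.74 outside the run and 0.65 with the slope. For the synthesis enzymes it was -0.33 and 0.40 without these pairs and 0.34 in the run, and for transport genes -0.32 and 0.23, 0.18 in the run, -0.28 outside it, -0.31 with the slope and -0.29 with the filter of 50. That filter dropped Slc7a11, so this last median covers only the other transport genes.

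Of 694 values of target genes under alternatives 79 changed sign, 25 of them with 1 library left out, and 10 genes never did. Without wild-type 3 and 4 these were Atf3 2.78, Ddit4 0.83, Eif4ebp1 -0.094, Vldlr 0.50, Phgdh -0.12, Psph -0.13, Asns -0.40, Cth -0.32, Pck2 0.13, Slc3a2 -0.17, Nars -0.15 and Sars -0.17. Without wild-type 1 and 2 they were Cebpb -0.033, Sesn2 -0.45, Gdf15 -1.01, Psat1 0.34, Shmt2 0.045, Mthfd2 0.57, Slc7a1 0.0072 and Gars 0.071. The run alone gave Sesn2 -0.39, Psat1 0.36, Shmt2 0.026, Mthfd2 0.43 and Gars 0.092. Outside the run these were Atf3 1.35, Chac1 0.74, Ddit4 0.59, Vldlr 0.49, Phgdh -0.18, Asns -0.13, Cth -0.32, Slc3a2 -0.019, Nars -0.14 and Sars -0.21. The slope gave Atf3 2.73, Ddit4 0.69, Eif4ebp1 -0.061, Vldlr 0.37, Phgdh -0.047, Psph -0.068, Asns -0.36, Cth -0.24, Pck2 0.16, Slc3a2 -0.14, Nars -0.11 and Sars -0.12. The run as covariate gave Psat1 0.062 and Mthfd2 0.12, quantile scaling Psat1 0.026 and Mthfd2 0.11, DESeq2 Asns -0.017 and Pck2 0.0053, and edgeR Asns -0.027. With 1 library left out, ranges that crossed 0 were -0.17 to 0.21 for Asns, -2.18 to 0.82 for Atf3, -0.40 to 0.12 for Atf5, -0.16 to 0.77 for Cth, -0.71 to 0.21 for Ddit4, -0.19 to 0.0092 for Gars, -0.28 to 0.24 for Mthfd2, -0.046 to 0.12 for Nars, -0.11 to 0.12 for Pck2, -0.018 to 0.20 for Phgdh, -0.15 to 0.18 for Psat1, -0.024 to 0.47 for Sesn2 and -0.53 to 0.11 for Vldlr. The cause of each change of sign was not tested.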
